A study of Rattus norvegicus with 28 samples.

Results

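Among 56810 accessible chromatin regions measured in rat dorsal root ganglia (DRGs), 987 differed strongly from rat to rat within the inflamed group. These variable regions lay on chromosomes 1 to 20, outside the first 8 Mb of chromosome 20. In each, the highest of the 6 libraries from rats with hind paw inflammation exceeded the lowest by at least 1.5 on the log2 scale, a 2.83-fold difference, and the highest library reached at least 5. Of the 55437 regions on those chromosomes, 48809 reached a highest value of 5, so the variable regions were 2.02% of the regions that could be chosen. The values of the inflamed rats chose the regions and are given below as a description. The naïve and the nerve injury libraries took no part in the choice.

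The study compared 2 models of persistent pain with naïve animals in adult male Sprague-Dawley rats aged 12 weeks. Chronic constriction injury (CCI) is a loose ligation of the sciatic nerve, and its 6 libraries were taken 14 days after surgery. Complete Freund's adjuvant (CFA) was injected under the skin of the plantar hind paw, and its 6 libraries were taken after 48 h. The 3 naïve rats had neither surgery nor injection, and no sham-operated or saline-injected group was analysed here. Rats of the pain groups entered the study only after their paw withdrawal threshold had dropped, and rats of the naïve group only without such a drop. Each library held the ipsilateral lumbar DRGs of 1 rat, so the rat, its dissection and its library cannot be told apart. Sprague-Dawley rats are an outbred stock, whose animals are not genetically identical. Sequencing differed within the CCI group, with 2 runs for replicates 1 and 2 and 1 run for replicates 3 to 6, while every CFA and naïve library had 2 runs. The column names of 2 CFA libraries do not show which replicate they are, and these libraries are called CFA a and CFA b.

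A DRG holds the cell bodies of the sensory neurons of a spinal nerve, together with the satellite glia and Schwann cells around them. ATAC-seq uses a transposase to insert sequencing adaptors where DNA is not covered by nucleosomes, such as promoters and enhancers, and the coverage of a region counts these insertions. In such bulk tissue, fewer cells with an open region and a less open region in each cell give the same lower value and cannot be told apart. The sequence under a region, and thus its motifs or repeats, was not analysed here. As a check of the tissue, neuronal marker genes were found in both CFA RNA-seq libraries, with a mean of 2 libraries of 11580 CPM for the neurofilament gene Nefm, 1094 CPM for the neuropeptide gene Calca and 559 CPM for the sodium channel gene Scn10a. Of 5 glial markers 2 could be matched to an identifier, the myelin gene Mbp at 2035 CPM and S100b at 1145 CPM. None of the 6 immune and 4 muscle markers could be matched, so the share of those cells was not analysed here.

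Values are log2 normalized coverage as deposited, with CFA and naïve libraries in a first table and CCI and the same naïve libraries in a second. The tables were normalized separately, so CFA and CCI values are compared by their order within a table and not by level. The median CFA range, highest minus lowest library, was 1.67 in the variable regions, with the middle 50% between 1.57 and 1.85. In the other 47822 regions that reached 5 it was 0.59. A range of at least 2 was found in 137 variable regions, of at least 3 in 11 and of at least 5 in 2. Most variable regions were thus close to the threshold, and a small number stood far above it.

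Variable regions were narrower and weaker than other regions of this level. Their median width was 405 bp against 606 bp, and the median of their mean CFA value was 4.71 against 5.93. A highest CFA value between 5 and 6 was found in 797 of them, which is 3.90% of the 20414 regions in that band. The share fell to 0.921% between 6 and 7, 0.426% between 7 and 8 and 0.291% between 8 and 9. From 9 upward it was 0.879%, or 17 of 1935 regions, and 15 of these 17 came from a single stretch of chromosome 17 described below. The spread of log2 coverage was also wider at low values among regions that were not chosen, and the part of low coverage in the membership was not tested.

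**Figure D1:**
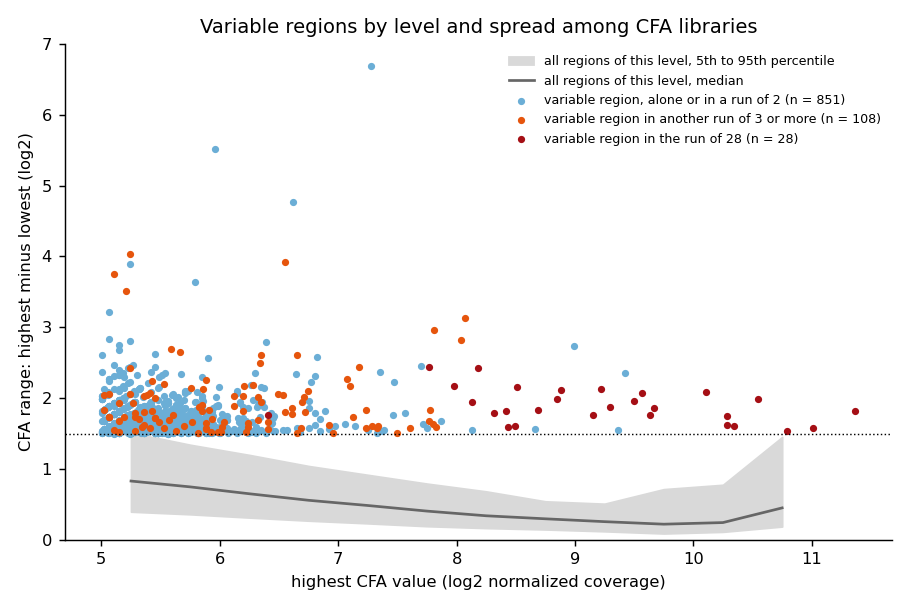
CFA range (log2, highest minus lowest of 6 libraries) against the highest CFA value (log2 normalized coverage) for the 987 variable regions, coloured by whether they lie in a run of neighbouring variable regions. The grey band and line give the 5th to 95th percentile and the median of all regions per 0.5 of level, and of the 28 regions of the chromosome 17 run 10 have a highest value between 8 and 9 and 15 one from 9 upward.

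Close to the range threshold, the 3 regions just inside it had CFA ranges between 1.5 and 1.5002, at chr5:12392557-12392765, chr10:62130768-62131152 and chr5:47425969-47426224. The 3 just outside it had ranges of 1.4974 to 1.4993, at chr5:58343195-58343699, chr1:176746606-176747088 and chr12:29384538-29384930. Close to the level threshold, the 3 regions just inside had a highest value of 5.01 and ranges of 1.52, 1.67 and 2.03, at chr13:19370366-19370695, chr1:19436878-19437094 and chr13:47036551-47036821. The 3 just outside had a highest value of 4.99 and ranges of 1.503, 1.65 and 1.97, at chr20:22109449-22109672, chr18:27317200-27317433 and chr10:83381125-83381395. Regions at the edge were thus hardly different from those left out.

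No single CFA library was low in all variable regions. CFA replicate 3 was the lowest library in 218 regions (22.1%), against 14.4% of other regions of this level. CFA replicate 6 was the lowest in 189 (19.1%, against 22.0%), CFA b in 153 (15.5%, against 17.9%) and CFA a in 147 (14.9%, against 16.4%). CFA replicate 4 was the lowest in 144 (14.6%, against 14.3%) and CFA replicate 5 in 136 (13.8%, against 14.9%). CFA replicate 6 was the highest library in 348 regions (35.3%), against 19.8% of the other regions of this level, while CFA b was the highest in 196 and each of the other 4 in 99 to 122. CFA replicate 6 therefore carried the largest share of the high values, and without this library 523 regions met the rule. The removal of any of the other 5 left 704 to 807.

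The 6 CFA values of a region were sorted, and the libraries under the largest gap were taken as low. By this rule 1 library was low in 529 regions (53.6%), 2 in 120, 3 in 105, 4 in 46 and 5 in 187. The count with 1 low library depended on the rule, at 843 where a library at least 1.5 under the highest was taken as low and 260 where a library under the midpoint of highest and lowest was. In 351 regions the gap took up at least 50% of the range, so that the libraries formed 2 separate levels, and 260 of these had 1 low library. By construction these 260 are the regions with 1 library under the midpoint. The number of low libraries is not given for other regions of this level, so these counts are not shown to be particular to variable regions. In all, 57 different sets of low libraries occurred. The commonest was CFA replicate 6 alone (134 regions), followed by CFA replicate 3 alone (103), CFA b alone (100) and all libraries but CFA replicate 6 (98). CFA replicate 6 was also the library most often lowest in other regions of this level (22.0%). Sets of 1 low library were spread over 18 to 20 chromosomes. Of the 103 regions with CFA replicate 3 alone low, 28 lay in a run of 3 or more neighbouring variable regions, against none of the 134 with CFA replicate 6 alone low and 1 to 5 for each of the other 4 libraries.

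Some sets had a large part of their regions in such runs. CFA replicates 3, 4 and 5 were low together in 42 regions, of which 29 lay in runs of 3 or more, on 10 chromosomes for the set. A single run on chromosome 17 held 19 of the 42. CFA replicates 4 and 5 were low together in 31 regions, 14 of them in such runs. CFA replicate 3 stood alone above the other 5 libraries in 23 regions, 13 of them in such runs and 8 in a single run on chromosome 16. CFA replicates 4 and 5 were on the same side of the gap in 778 of 987 variable regions (78.8%), the highest share of the 15 pairs of libraries, against 63.9% in the other regions of this level. The lowest share was that of CFA replicates 3 and 6, at 45.1% against 51.8%.

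**Figure D2:**
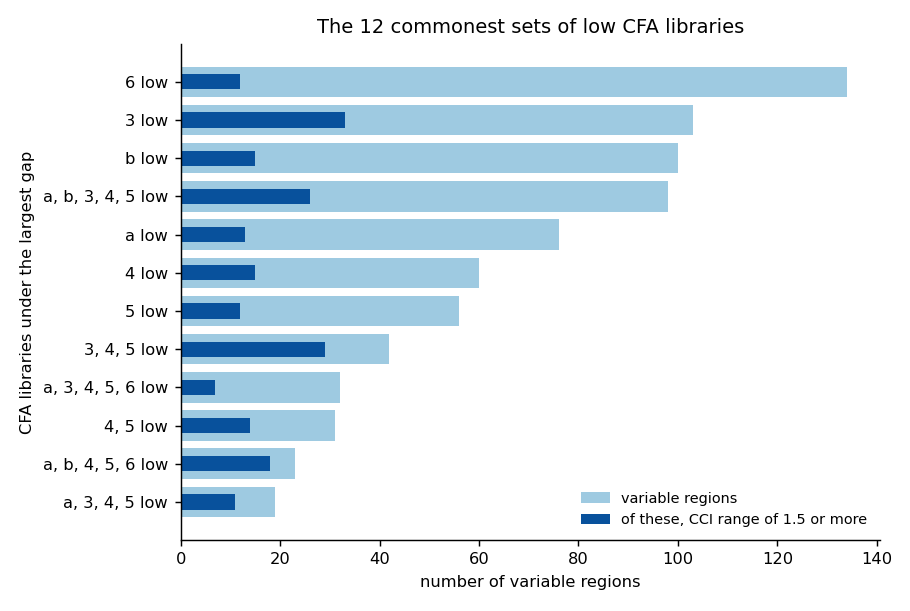
Number of variable regions for each of the 12 commonest sets of CFA libraries under the largest gap (light bars), and the number of these that also had a range of 1.5 or more among the 6 CCI libraries (dark bars). CFA replicate 6 alone low is the commonest set (134 regions), and this library is also most often lowest in other regions of this level. The sets 3, 4, 5 low (29 of 42) and a, b, 4, 5, 6 low (18 of 23) hold the highest shares of regions that also varied among CCI libraries. Of the 42 regions 19 belong to a single run on chromosome 17, and of the 23 regions 8 to a single run on chromosome 16.

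The largest CFA range of all, 6.69, was found at chr15:106503907-106504483, a region of 576 bp. CFA a stood at 6.73, CFA b at 7.28 and CFA replicate 6 at 6.70, while CFA replicates 3, 4 and 5 stood at 0.59, 0.73 and 1.21. The lowest value anywhere in the table was 0.44, so this region was near the floor in 3 inflamed rats and high in the other 3. In the CFA table the naïve libraries gave 4.63, 5.86 and 4.98 and lay between the CFA levels. CCI replicates 1 to 6 gave 0.00, 0.22, 5.65, 2.08, 0.37 and 5.68. Among CCI rats too the region was high in some and at the floor in others, with replicates 3 and 6 high and replicates 1, 2 and 5 at or near the lowest value of that table, 0.00. The CCI mean of 2.33 ± 2.68 (SD, n = 6) was 2.60 below the naïve mean of 4.93 ± 0.59 (n = 3) in the CCI table, where the naïve libraries stood at 4.44, 5.59 and 4.77, and this difference did not pass the threshold of 0.001 (SE 1.23, limma p = 0.0560, exact permutation p = 0.167).

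The second largest CFA range, 5.52, at chr3:145681972-145682485, divided the CFA libraries in the same way. CFA a, CFA b and CFA replicate 6 stood at 5.67, 5.96 and 5.76, and CFA replicates 3, 4 and 5 at 0.59, 0.73 and 0.44. All 3 naïve libraries were low here, at 0.44, 0.59 and 0.59 in the CFA table and 0.00, 0.11 and 0.11 in the CCI table. CCI replicates 1 to 6 gave 4.02, 4.99, 0.73, 5.23, 0.37 and 0.22. The CCI rats that were high at this region (replicates 1, 2 and 4) were low or intermediate at the chromosome 15 region, and the 2 that were high at chromosome 15 (replicates 3 and 6) were low here. Within the CCI table the CCI mean was 2.52 above the naïve mean (SE 1.09, limma p = 0.0394, exact permutation p = 0.0833), short of the threshold.

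The third largest range, 4.77, at chr9:119866776-119867027, came from 1 library. CFA replicate 3 stood at 1.85, while the other 5 CFA libraries ranged from 5.45 to 6.62. The naïve libraries gave 5.51, 7.24 and 5.35 and were high with the other CFA libraries. CCI replicates 3 and 6 stood at 3.73 and 4.09, below the other 4 CCI libraries at 6.52, 6.31, 6.56 and 5.78. In the CCI table the naïve libraries stood at 5.27, 6.82 and 5.12, and the difference between the CCI and naïve means was small beside this spread, at -0.24 (SE 0.65, limma p = 0.721).

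**Figure D3:**
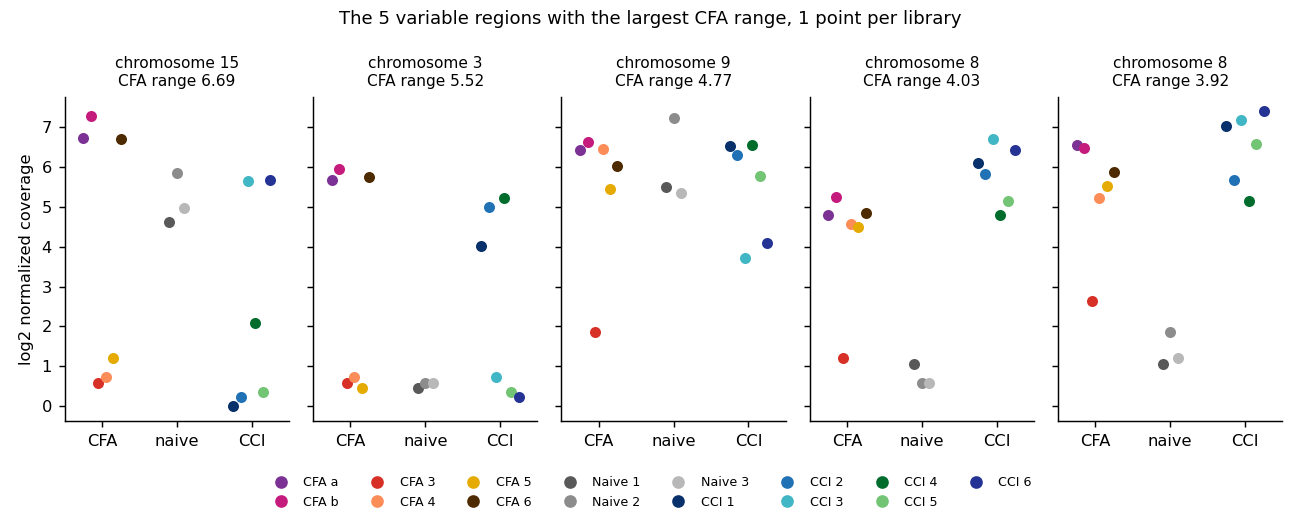
Log2 normalized coverage of each library at the 5 variable regions with the largest CFA range, with CFA and naïve values from 1 table and CCI values from the other, and 1 point per library. At the chromosome 15 and chromosome 3 regions the CFA libraries form a group near 0.44 to 1.21 and a group near 5.67 to 7.28, and CFA replicate 3 alone is low at the other 3.

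The next largest ranges, 4.03 and 3.92, lie close together on chromosome 8, at chr8:4337259-4338234 and chr8:4292048-4292933. Another variable region lies between them, at chr8:4322772-4323450, with a CFA range of 1.81. The study's list of regions shared by both pain models gives Vom2r17 and Vom2r18 as the nearest genes, with Vom2r18 beside the region at 4292048 and Vom2r17 beside the others. These genes belong to the vomeronasal type 2 receptors, a large family of pheromone receptors with similar sequences, and how reads from near-identical copies were counted here was not tested. The 3 regions are also on a list that was chosen on these samples, and their difference from naïve is not independent evidence.

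At the region at 4337259, CFA a, CFA b and CFA replicates 3 to 6 gave 4.79, 5.24, 1.21, 4.58, 4.49 and 4.85. Every CFA library but replicate 3 was thus at 4.49 or above, and replicate 3 lay nearer to the naïve libraries, at 1.07, 0.59 and 0.59 in the same table. CCI replicates 1 to 6 gave 6.09, 5.82, 6.70, 4.79, 5.16 and 6.43. In the CCI table the naïve libraries stood at 0.51, 0.11 and 0.11, near that table's lowest value. The CCI and naïve libraries did not overlap, and the region rose by 5.59 after CCI (SE 0.36, limma p = 2.35e-09, adjusted p = 0.000134, exact permutation p = 0.0119, the smallest that 84 splits allow). At 4292048 the CFA libraries gave 6.55, 6.48, 2.63, 5.22, 5.54 and 5.88 in the same order, and the naïve libraries 1.07, 1.85 and 1.21. CFA replicate 3 was again the lowest CFA library, and at both regions it lay above all naïve libraries. The CCI libraries at 4292048 ranged from 5.15 to 7.40 and the naïve libraries in the CCI table from 0.51 to 1.47, and the region rose by 5.64 after CCI (SE 0.46, limma p = 2.72e-08, adjusted p = 0.000516). At 4322772 the CFA libraries ranged from 3.55 to 5.36, with replicate 3 lowest, and the naïve libraries from 1.85 to 2.73. The rise after CCI was 3.88 (SE 0.28, limma p = 7.77e-09, adjusted p = 0.000221), with CCI libraries from 5.17 to 6.33 and naïve libraries in the CCI table from 1.47 to 2.55. All 3 calls kept p under 0.001 in each of 9 fits that left out 1 library.

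Variable regions clustered along the chromosomes. Where neighbouring variable regions at most 100 kb apart were joined into runs, 252 regions (25.5%) lay in 81 runs of 2 or more and 735 stood alone. There were 58 runs of 2, and 23 runs of 3 or more held 136 regions. Runs were not counted for comparable regions, so these counts alone do not show clustering. The region next in the table was also variable for 97 of the 987 (9.83%), against a share of 2.02% among all regions that could be chosen. Chromosome 19 had the highest share of variable regions (3.95%, 62 of 1568), followed by chromosome 17 (3.59%, 64 of 1785), chromosome 16 (2.79%) and chromosome 9 (2.71%). The lowest shares were those of chromosome 20 (0.606%, 6 of 990) and chromosome 10 (1.16%). Without runs of 3 or more the share was 2.17% on chromosome 19, 2.02% on chromosome 17 and 1.71% on chromosome 16, within the span of the other chromosomes counted in this way (0.606% to 2.44%).

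Neighbours within a run often shared their high and low libraries. In 48 of 171 neighbouring pairs (28.1%) exactly the same CFA libraries were low, against 6.71% of 457601 pairs on different chromosomes. The lowest CFA library was the same in 40.9% of neighbouring pairs against 17.03% of pairs on different chromosomes, and the highest in 48.5% against 21.3%. The CCI libraries, which the rule did not use, gave like shares. The lowest CCI library was the same in 79 of 171 neighbouring pairs (46.2%) against 18.0%, and the highest in 66 (38.6%) against 18.5%. Without the largest run these CCI shares were 41.7% and 32.6% of 144 pairs. The CFA shares without that run were 22.9% for the same low libraries, 29.9% for the lowest library and 43.8% for the highest. Neighbouring regions share a chromosomal place and a library, so these pairs are not independent, and no test was made. Neighbouring pairs of other regions were not counted, so the shares are not shown to be particular to variable regions.

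The largest run held 28 of the 32 regions between chr17:89387576-89535407, a span of 148 kb. CFA replicate 3 was the lowest CFA library in all 28 and CFA replicate 6 the highest in 23. The mean over the run was 8.77 in CFA a, 9.05 in CFA b, 7.31 in CFA replicate 3, 7.96 in replicate 4, 7.93 in replicate 5 and 9.19 in replicate 6. The naïve means were 7.87, 8.41 and 8.14, between CFA replicate 3 and CFA a. The CCI means were 7.67, 8.998, 9.33, 8.62, 7.92 and 9.24, with CCI replicate 3 highest in 22 of the 28 regions and CCI replicate 1 lowest in 23. A whole stretch of open chromatin was thus lower in some rats of each pain group than in others, by 1.88 in the CFA and 1.66 in the CCI run means. The region of the run with the largest CFA range, chr17:89445228-89445495, stood at 5.33 in CFA replicate 3 and between 5.91 and 7.77 in the other CFA libraries, while its naïve values of 6.39, 6.55 and 6.35 differed by 0.20. No region of the run was called between CCI and naïve.

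The second run lies at chr3:143859961-144065821 and held 10 of 19 regions. Here the run means of CFA a, CFA b and CFA replicate 6 were low, at 4.14, 4.09 and 4.43. Those of CFA replicates 3, 4 and 5 were high, at 5.22, 5.63 and 5.36. This is the opposite order to that of the means of the chromosome 17 run. By the largest gap, exactly CFA a, CFA b and CFA replicate 6 were low in 4 of the 10 regions, and 5 different sets occurred. The naïve means, 5.69, 5.65 and 5.80, lay above all CFA means. In single regions, all naïve libraries lay above all CFA libraries in 1 of the 10. The CCI means ran from 3.84 in replicate 1 to 5.74 in replicate 3 and 5.70 in replicate 6, and all 10 regions had a CCI range of at least 1.5. At chr3:144046136-144046979, which has the largest CFA range of this run, the naïve values of 6.35, 6.26 and 6.37 agreed within 0.11, while the CFA libraries ranged from 3.84 to 6.34 and the CCI libraries from 4.62 to 6.33.

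The third run, at chr16:64900129-64948009, held 9 of 11 regions within 47.9 kb. CFA replicate 3 was the highest CFA library in all 9, with a run mean of 6.52 against 4.34 to 5.50 in the other 5. The naïve means were 6.67, 7.11 and 6.77, above every CFA mean, and all naïve libraries lay above all CFA libraries in 4 of the 9 regions. CCI replicate 4 was the highest CCI library in all 9 regions, with a mean of 8.34, followed by CCI replicate 1 at 6.93, and the other 4 lay between 4.73 and 5.87. The CCI run means spanned 3.61, more than the 2.18 of the CFA run means, although the CCI values had not chosen the regions. At chr16:64932377-64932617 the CFA libraries gave 1.35, 3.18, 5.11, 2.41, 1.87 and 3.48, in the order CFA a, CFA b and replicates 3 to 6. The naïve libraries gave 5.59, 5.94 and 5.35, and CCI replicates 1 to 6 gave 5.50, 3.84, 3.28, 7.10, 2.82 and 3.28.

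**Figure D4:**
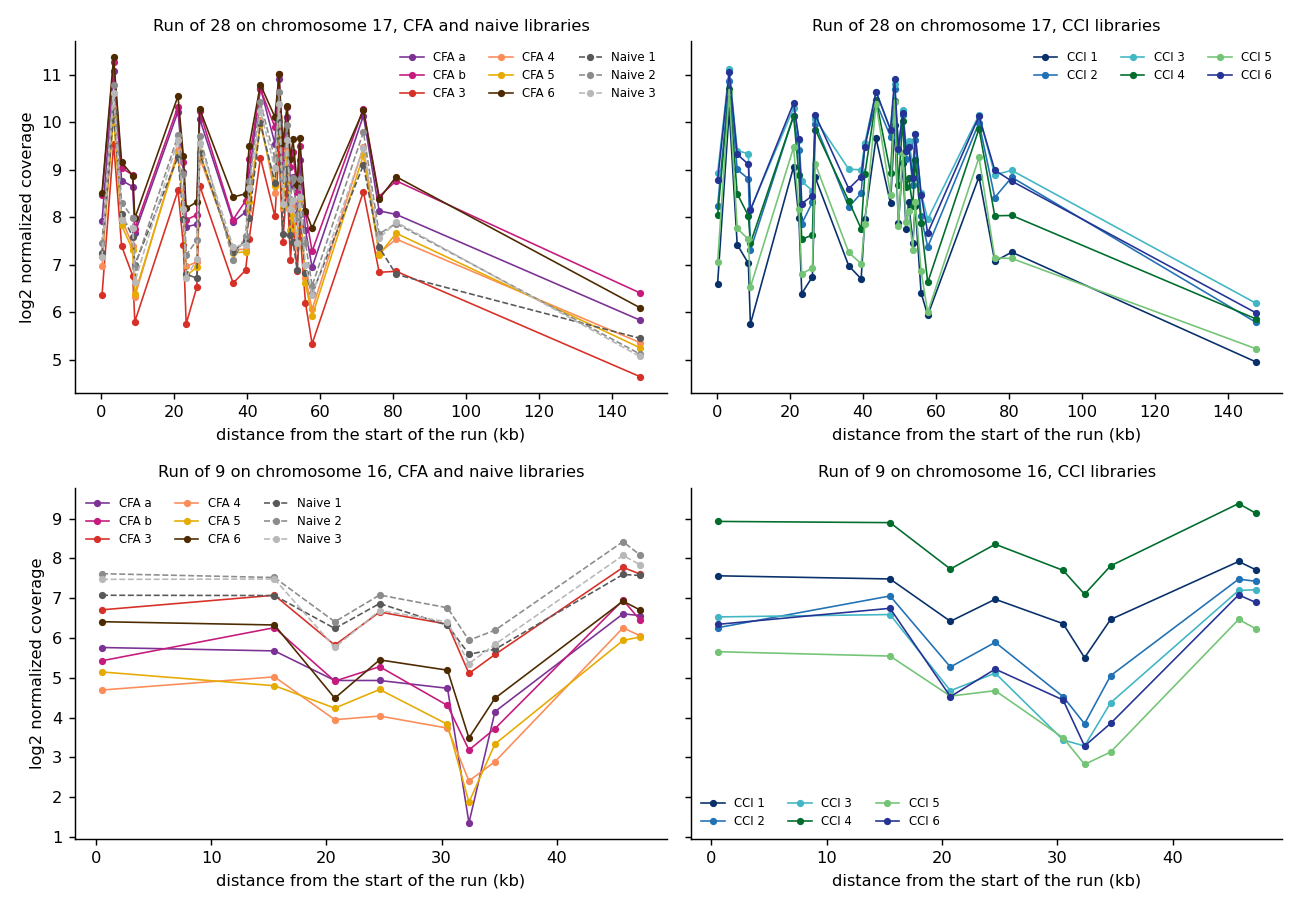
Log2 normalized coverage of each library at the variable regions of the chromosome 17 run (upper panels, 28 regions) and the chromosome 16 run (lower panels, 9 regions), against distance in kb from the start of the run. Lines join the regions of 1 library, dashed for naïve, and the libraries keep nearly the same order along each run, with CFA replicate 3 lowest on chromosome 17 and CFA replicate 3 and CCI replicate 4 high on chromosome 16.

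Other runs, named here after their values were seen, showed the order of the chromosome 16 run. At chr5:77651898-77696748 (6 regions) CFA replicate 3 had the highest CFA mean, 6.12, and CCI replicates 4 and 1 the highest CCI means, 7.73 and 6.51. The naïve means there were 6.13, 6.62 and 6.43, above every CFA mean, and all naïve libraries lay above all CFA libraries in 3 of the 6 regions. CFA replicate 3 stood alone above the other CFA libraries in 23 regions. In these, CCI replicate 4 was the highest CCI library in 16 and CCI replicate 5 the lowest in 14. Among all regions the shares were 13.99% and 14.96%. However, 8 of the 23 belong to the chromosome 16 run itself, where CCI replicate 4 was highest in all 9 regions. The counts thus in part repeat that run. The naïve mean exceeded the CFA mean by 1.497 at the median of the 23, that run's 8 included, against 0.03 over all variable regions.

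The next runs by size lie on chromosome 19, at chr19:193290-382889 (9 of 32 regions) and chr19:26424756-26616354 (8 of 33). In the former, CFA replicates 3, 4 and 5 had the low means of 4.63, 5.05 and 5.14, and CFA a, CFA b and replicate 6 the high means of 5.80, 5.95 and 6.14. In the latter the same libraries had the low means, 4.77, 4.88 and 4.98, and the high means, 5.54, 5.98 and 5.97. Single regions varied more. By the largest gap, exactly CFA replicates 3, 4 and 5 were low in 4 of the 9 regions of the former. In the latter the commonest low set also held CFA a, in 4 of 8 regions. CCI replicates 3 and 6 had the highest CCI means in both runs, 6.02 and 6.08 in the former and 5.93 and 5.98 in the latter. The means of CCI replicates 4 and 5 lay between 4.69 and 4.78. CCI replicate 3 was the highest CCI library in 4 of the 9 and 3 of the 8 regions. The regions with the largest CFA range were chr19:329729-330117 (1.89) and chr19:26592981-26593340 (1.82). Of the 42 regions in which CFA replicates 3, 4 and 5 were low together, 19 belong to the chromosome 17 run and 4 to the run at chr19:193290-382889. In these 42, CCI replicate 3 was the highest CCI library in 26 and CCI replicate 6 in 11, where 19.3% and 15.6% of all regions showed this. Neighbours within a run are counted here as separate regions. In the 134 regions in which CFA replicate 6 alone was low, the highest CCI library was spread over all 6, from 14 regions for replicate 4 to 35 for replicate 5.

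By the largest gap, the naïve libraries more often lay with the high than with the low CFA libraries. All 3 were above the middle of the largest CFA gap in 515 variable regions, 2 in 175, 1 in 112 and none in 185. Set against the midpoint of the highest and lowest CFA library, all 3 were above it in 332. The counts follow the number of low CFA libraries in part. With CFA replicate 6 alone low, all 3 naïve libraries lay on the high side in 114 of 134 regions, and with CFA replicate 6 alone high, none did in 76 of 98. All naïve libraries lay above all CFA libraries in 17 variable regions, where 5.65% of all regions showed this, and below all in 6, where 5.39% did. A wide CFA range leaves less room outside it, so nothing is read from these counts. CFA and naïve differed by limma at p under 0.001 in 8 variable regions, 3 higher and 5 lower after CFA, beside 1.12% of all regions (0.565% higher and 0.556% lower), and this count is a description only.

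The naïve libraries also differed more among themselves in the variable regions than elsewhere. Their range had a median of 0.60, against 0.38 in other regions of this level, and reached 1.5 in 39 regions (3.95%), where 1.15% of all regions and 0.540% of other regions of this level did. By the highest CFA value the share was 3.89% against 1.16% between 5 and 6, and 4.21% against 0.106% from 6 upward. These bands do not match coverage, since the median naïve mean was 4.81 in variable regions and 5.94 in other regions of this level. A range over 3 libraries is smaller by construction than that over 6, so naïve and CCI ranges are not compared with each other. The count of 39 was 14 without naïve replicate 1, 12 without naïve replicate 2 and 26 without naïve replicate 3. A range over the 2 libraries left is smaller by construction, so these falls do not single out a rat. The largest naïve range was 4.29, at chr16:21899083-21900194, with values of 2.85, 7.14 and 6.47. CFA libraries ranged there from 5.41 to 7.24. CCI replicates 1 and 2 stood at 6.85 and 7.41, and CCI replicates 3 to 6 between 4.09 and 4.28. CCI replicates 3 to 6 are also the 4 sequenced in 1 run, so the rat and the number of runs cannot be told apart here. Naïve replicate 1 was also the low library at the regions with the next largest naïve ranges. It stood at 1.07 against 5.12 and 3.47 at chr8:181529-181887, and at 2.71 against 5.83 and 4.98 at chr16:21951441-21952215. Both chromosome 16 regions belong to a run of 5 variable regions.

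Variation among CCI libraries was wider in the variable regions than elsewhere. The median CCI range was 1.16, against 0.81 in other regions of this level. A CCI range of at least 1.5 was found in 265 variable regions (26.8%), where 8.84% of all regions did, and in 6.38% of other regions of this level. Within bands of the highest CFA value, the share was 22.5% against 10.3% between 5 and 6, and 45.3% against 3.63% from 6 upward. These bands do not match coverage. The median of the mean CFA value was 4.71 in variable regions and 5.93 in other regions of this level, and the part of low coverage was not tested. Among regions that varied most in CFA the share was higher, at 50.4% for a CFA range of at least 2 and 85.2% (23 of 27) for one of at least 2.5. It was 69.1% in runs of 3 or more and 20.1% outside them. These counts are of regions that share 6 CCI libraries and, in runs, a chromosomal place, and they were not tested.

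**Figure D5:**
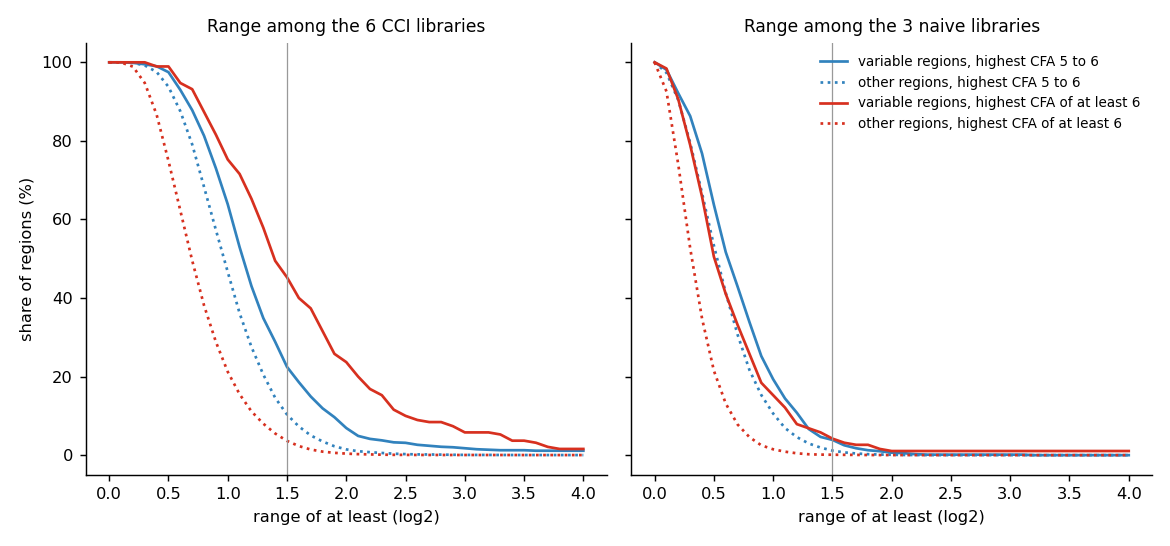
Share of regions (%) whose range among the 6 CCI libraries (left) or the 3 naïve libraries (right) is at least the value on the horizontal axis (log2), for variable regions (solid lines) and other regions (dotted lines) in 2 bands of the highest CFA value. At a CCI range of 1.5, marked by the vertical line, 45.3% of variable and 3.63% of other regions remain in the upper band, and 22.5% and 10.3% in the lower band.

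CCI replicate 3 was the highest CCI library in 280 variable regions (28.4%), against 19.3% of all regions, and CCI replicate 5 the lowest in 249 (25.2%), against 14.96%. CCI replicate 1 was the lowest in 210 (21.3%, against 14.6%). The 3 variable regions with the largest CCI range were chr15:106503907-106504483 (5.68, described above), chr14:101972277-101972877 (5.46) and chr14:15495448-15495796 (5.15). At chr14:101972277-101972877 CCI replicates 1 to 6 gave 6.45, 5.47, 3.60, 8.47, 3.02 and 4.87. The naïve libraries gave 6.48, 6.69 and 6.88, and among CFA libraries replicate 3 at 6.39 lay above the other 5, at 3.60 to 4.69. This is again the order of the chromosome 16 run, with CFA replicate 3 and CCI replicates 4 and 1 high. At chr14:15495448-15495796 CCI replicate 2 stood at 0.22, while the other CCI libraries ranged from 3.38 to 5.38.

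Between CCI and naïve, limma called 29 variable regions at p under 0.001 (2.94%), where 0.910% of all regions were called. Of these, 27 were higher after CCI, where 0.750% of all regions were, and 2 were lower, where 0.160% were. The median difference was 0.18 in the variable regions and -0.04 in all regions. With Benjamini-Hochberg adjustment over all 56810 regions, 3 variable regions kept an adjusted p under 0.05, where 0.0158% of all regions (9 regions) did, and these are the 3 beside Vom2r17 and Vom2r18. All CCI libraries lay above all naïve libraries in 73 variable regions (7.40%), where 3.85% of all regions showed this, and below all in 16 (1.62%), where 5.26% did. The number of calls depended on the naïve libraries, with 16 calls without naïve replicate 1, 16 without naïve replicate 2 and 19 without naïve replicate 3, where 0.312%, 0.540% and 0.373% of all regions were called. With CCI replicates 1 and 2 as the only CCI libraries, so that all had 2 sequencing runs, 16 were called, 13 higher and 3 lower, where 0.224% of all regions were called. Both comparisons use the same 3 naïve libraries.

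The 2 variable regions that were lower after CCI changed by less than the chromosome 8 regions. At chr15:4461239-4461640 CCI replicates 1 to 6 gave 4.67, 5.32, 4.67, 4.90, 4.73 and 4.5997, and the naïve libraries 5.74, 5.87 and 5.74 in the same table. The groups did not overlap, and the region fell by 0.97 (SE 0.18, limma p = 0.000167, adjusted p = 0.0894). Without naïve replicate 2 its p was 0.00139. At chr6:107551437-107552153 the CCI libraries ranged from 4.67 to 5.10 and the naïve libraries from 5.39 to 5.87, and the region fell by 0.77 (SE 0.17, limma p = 0.000633, adjusted p = 0.103). This call passed 0.001 in 3 of 9 fits that left out 1 library, with p up to 0.00619. In CFA, the first region had CFA replicate 5 low at 4.80 beside 5.71 to 6.75, and the second had CFA b and CFA replicate 6 low at 4.37 and 4.07 beside 5.18 to 5.76.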

How the data were processed

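ATAC-seq was analysed in 6 CCI, 6 CFA and 3 naïve libraries, with the runs of a library as 1 library, and RNA-seq in 2 CFA libraries. The authors aligned the ATAC-seq reads to rn6 with Bowtie2, removed duplicates, shifted the insertion sites for the transposase, downsampled each sample and counted reads in consensus MACS2 peaks. The deposited values are log2 normalized coverage, in 2 tables normalized separately. The normalization is not given in the sources used here. Percentiles from the 10th to the 90th differed between columns of a table by at most 0.0589 (CFA) and 0.0688 (CCI), and ATAC-seq depth cannot be read from such values. The deposited RNA-seq values are a raw count per gene, 10520647 and 28825688 on genes in all, given here as CPM. Symbols came from the study's supplementary lists. Not every marker of the tissue check is reported here.

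Regions, gaps and runs were computed in Python 3.11.15 (numpy 2.4.6, pandas 2.3.3, matplotlib 3.10.9). CCI was set against naïve region by region in a moderated linear model (limma 3.58.1, R 4.3.3), two-sided, with calls at p under 0.001 before adjustment, as in the study, and with Benjamini-Hochberg adjustment over all regions, and named regions also by an exact two-sided permutation test over 84 splits. Tested on simulated data for this comparison, 90% of 200 regions changed by 1.5 were recovered, and 66 unchanged regions of 56810 were called.

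Named regions are the 5 with the largest CFA range, the 5 largest runs with their widest region, up to 3 per direction with the smallest p among those called between CCI and naïve (only 2 were lower), the 3 with the largest naïve and CCI ranges, those in the study's list of shared regions, and 3 on each side of each threshold. The members, lists and tests were chosen with earlier results of these data known. Alternatives were other thresholds, gap rules, distances, limma settings, a replicate block and the removal of each library in turn. Added once the data had been seen were the fit to libraries sequenced in 2 runs, the restriction to a highest CFA value of 6 and that to regions outside runs of 3 or more. Sequences, genes and repeats under the regions were not analysed here, since the genome table at hand is of another build.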

Additional observations from a re-analysis of the deposited data

Results flagged for a closer look

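In 24 named variable regions, 48 groups of 6 libraries were searched for a library far from the other 5 (Dixon's 95% limit), and 4 were found. Chance flags about 1 in 20 groups of values that chose nothing, and this rate does not apply to CFA groups, whose spread chose the regions. Nor does it apply to all CCI groups, since some regions were named for their CCI range or their p between CCI and naïve. All 4 are CFA groups, and none of the 24 CCI groups was found. CFA replicate 3 stood at 1.85 at chr9:119866776-119867027, where the next CFA library stood at 5.45. CFA replicate 3 also stood apart at 2 of the 3 regions beside Vom2r17 and Vom2r18, at 2.63 (next 5.22) at chr8:4292048-4292933 and at 1.21 (next 4.49) at chr8:4337259-4338234. CFA replicate 6 stood at 6.14 at chr8:181529-181887, above the next at 4.64. The cause was not tested.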

How the results depend on the processing

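The number of variable regions, 987, was 6941 and 137 with ranges of at least 1 and 2, 1540 and 190 with highest values of at least 4 and 6, 590 by an SD of at least 0.6, and 523 to 807 without single CFA libraries. Regions with 1 low library, 529, numbered 843 with low set at 1.5 under the highest and 260 with low set at the midpoint. All naïve libraries were on the high side in 332 by the midpoint. Runs at distances of 10 kb and 1 Mb held 103 and 579 regions, and 42.6% and 17.9% of their neighbours shared the low libraries. A CCI range of at least 1 and 2 was found in 652 and 100, and of at least 1.5 in 171 outside runs of 3 or more, 86 with a highest CFA value of 6 and 206 to 238 without single CCI libraries. A naïve range of at least 1 and 2 was found in 183 and 7, and of at least 1.5 in 8 with a highest CFA value of 6 and 12 to 26 without single libraries. Between CCI and naïve, 48 variable regions (1194 of all regions against 517) were called with an intensity trend, 118 at p under 0.01 (5.60% of all regions), 3 at adjusted p under 0.05 (0.0158%), 16 within libraries sequenced in 2 runs (0.224%) and 16 to 43 without single libraries (0.312% to 1.66%). Of 24 named regions 5 were called, 4 to 5 without single libraries. These 5 were named for their small p, so their number was fixed by the naming and is not a result. An exact permutation p under 0.05 was found in 8 named regions, these 5 included. The difference at chr9:119866776-119867027, not called, ran from -0.54 to 0.30 without single libraries, above 0 without CCI replicate 3, CCI replicate 6 or naïve replicate 2. The causes were not tested.

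With the replicate number as a block, 24 variable regions were called, where 0.676% of all regions were, and 3 of the named regions. The numbers mark no shared animal, since each library held 1 rat, and the sources used here do not state whether they mark a batch. Deviations of same-numbered CCI and naïve libraries correlated with r of -0.06, 0.07 and -0.03. These values show no pairing of the samples, and a shared batch was not tested. Precision is limited by 6, 6 and 3 libraries, by coverage near the floor in low regions, and by an ATAC-seq depth that the normalized values do not show.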
